A study of Mus musculus with 12 samples.

Results

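Potassium channel genes were examined in O4-positive mouse cells after deletion of Chd7, which encodes an ATP-dependent chromatin remodeller. The members were all genes of the deposited count table whose symbol starts with Kcn, the stem shared by pore-forming subunits, their auxiliary subunits and a few non-coding transcripts from the same loci. There were 69 such genes among 14107 in the table. The Chd7iKO animals had the genotype PDGFRaCre; Chd7flox/flox (5 libraries), and their Control littermates had the genotype Chd7flox/flox without Cre (7 libraries). Animals of both groups received tamoxifen under the skin at 20 mg/ml, in doses of 40 µl (postnatal day 1) and 30 µl (postnatal day 4), and cells of cortex and corpus callosum were collected at postnatal day 7 by magnetic sorting with an anti-O4 antibody. O4 marks late oligodendrocyte precursors and immature oligodendrocytes, the cells that go on to make myelin. The Cre is driven by the promoter of Pdgfra, a receptor of oligodendrocyte precursors. Cre on its own was not among the groups, and its effects and those of Chd7 deletion cannot be told apart.

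Potassium channels let potassium ions cross the membrane and so set the resting potential and shape electrical responses. Voltage-gated channels open on depolarization, inward rectifiers hold the resting potential and take up potassium, tandem-pore channels carry background leak, and calcium-activated channels answer to calcium inside the cell. Oligodendrocyte precursors are known for transient (A-type) and delayed voltage-gated currents, which become smaller as the cells mature, while inwardly rectifying currents become larger. Auxiliary subunits do not form a pore but change how much channel reaches the membrane and how it opens and closes.

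The 12 libraries held 30384507 to 35512310 estimated counts each. Expression is given in CPM, read counts scaled for library size and composition. Of 15 markers of the oligodendrocyte lineage 0 rose and 7 fell, with a mean level over the list of 8.66 to 8.95 log2 CPM in Chd7iKO and 8.95 to 9.31 log2 CPM in Control libraries. Of markers of other cells, 12 of 16 microglial, 10 of 14 endothelial and 9 of 13 mural and fibroblast genes rose and 0 fell, 0 of 16 measured neuronal genes rose and 4 fell, and of 14 astrocyte genes 1 rose and 1 fell. Of these markers 88 were measured, and none was at 0 in any library. Rises and falls are by the threshold on adjusted p given below, by which 15.8% of all genes rose and 13.8% fell. Endothelial and mural means were highest in Chd7iKO 4 and 5 (5.43 and 5.63, and 5.34 and 5.56 log2 CPM), and the astrocyte mean was highest in Control 1 (8.08, with the other libraries at 6.98 to 7.65). In such bulk samples, fewer cells of a type and less RNA per cell cannot be told apart. The Chd7 transcript stood at 242 ± 28.9 CPM in Chd7iKO (SD, n = 5) and 236 ± 30.9 CPM in Control libraries (n = 7). Which exons are floxed is not stated in these sources, and a sum over the whole gene does not check the deletion.

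Among the 69 Kcn genes, 7 were higher and 16 were lower in Chd7iKO cells, and 46 did not pass the threshold, an adjusted p under 0.05 in edgeR's quasi-likelihood test. These shares are 10.1% higher and 23.2% lower, beside 15.8% higher and 13.8% lower over all genes tested. In either direction 33.3% of the Kcn genes were called, near the 29.5% over all genes. The median log2 fold change, Chd7iKO over Control, was -0.12 over the Kcn genes and 0.0014 over all genes. The changes were moderate. Their median size on the log2 scale was 0.66 for the genes that rose and 0.52 for those that fell, and 1 gene rose (Kcnj4) and 1 fell (Kcnj3) at least 2-fold, beside 1.94% and 0.262% of all genes. In 4 genes all Chd7iKO libraries lay above all Control libraries, and in 6 they lay below, beside 6.2% and 6.32% of all genes. All 69 members passed the expression filter, with 9 counts as the smallest value of any member in any library.

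**Figure D1:**
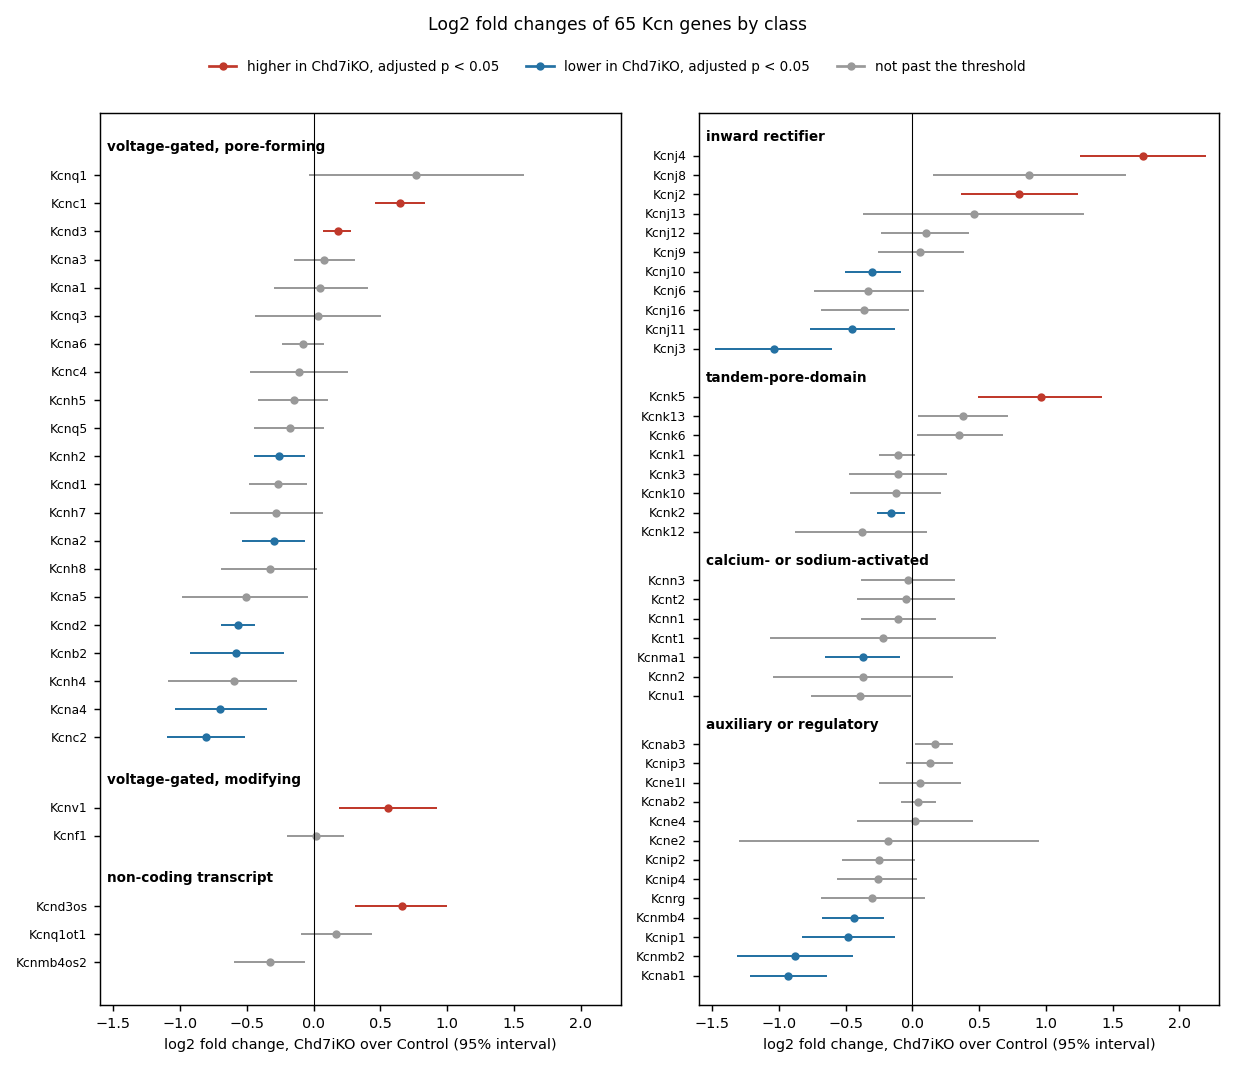
Log2 fold changes of 65 Kcn genes, Chd7iKO over Control, with 95% intervals (horizontal axis), by class. Red genes were higher (7) and blue genes lower (15) in Chd7iKO cells by edgeR's adjusted p, and grey genes (43) did not pass; the points run from -1.04 (Kcnj3) to 1.73 (Kcnj4).

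To compare genes with each other, CPM were divided by exon length, taken over all annotated exons of a gene. The lengths of the transcripts present in these cells were not measured, so ranks and ratios between genes rest on the annotation. Kcnip3, which encodes a calcium-binding auxiliary subunit also known as a transcriptional repressor, had the highest level, at 120 ± 11.7 CPM per kb in Chd7iKO (SD, n = 5) and 110 ± 10.7 CPM per kb in Control libraries (n = 7). Kcnj10, the main inward rectifier of glia, came next at 78.3 ± 11.0 and 96.2 ± 11.8 CPM per kb in Chd7iKO and Control libraries. The A-type channel gene Kcnd2 and its relative Kcnd3 ranked next, in this order, in both groups. In Chd7iKO libraries these neighbours lay within their spread of each other, at 33.4 ± 1.76 CPM per kb for Kcnd2 and 31.8 ± 1.69 CPM per kb for Kcnd3. In Control libraries they lay apart, at 49.6 ± 3.58 and 28.1 ± 1.24 CPM per kb. Kcna6, Kcnk1 and Kcnk2 followed in this order in both groups, Kcnk1 and Kcnk2 within their spread in Control libraries (17.2 ± 1.29 and 16.7 ± 0.886 CPM per kb). The order shifted for the genes with larger changes: Kcnc1 was 15th in Chd7iKO and 19th in Control libraries and Kcnj4 54th and 66th. At the low end, Kcnh7 had 0.158 ± 0.00941 CPM per kb in Chd7iKO and 0.193 ± 0.0428 CPM per kb in Control libraries.

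**Figure D2:**
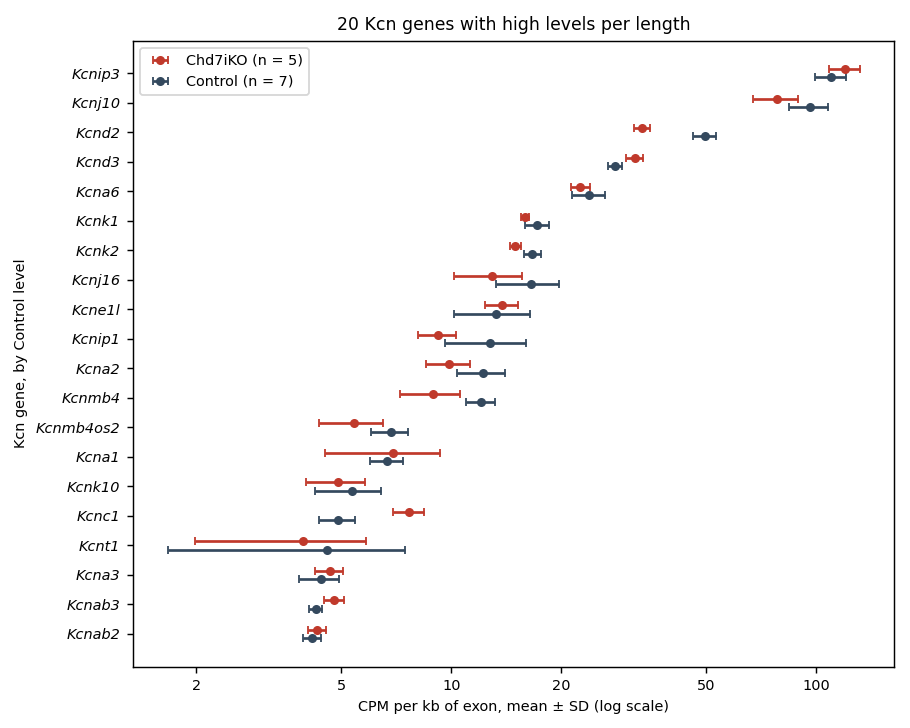
Levels of 20 Kcn genes with many CPM per kb of exon in Control libraries (log axis), as mean ± SD of Chd7iKO (red, n = 5) and Control libraries (dark, n = 7). Kcnd2 and Kcnd3 lie at 33.4 and 31.8 CPM per kb in Chd7iKO and at 49.6 and 28.1 CPM per kb in Control libraries.

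The class of pore-forming voltage-gated channels held 25 genes. Of these 2 rose and 7 fell (36%, beside 29.5% of all genes called), and the median log2 fold change was -0.18. Kcnd2, a pore-forming subunit of the A-type channel, had the smallest p of all Kcn genes. It had 180, 169, 183, 165 and 163 CPM in Chd7iKO 1 to 5, against a lowest value of 231, a median of 266 and a highest value of 275 CPM in Control libraries. All Chd7iKO libraries lay below all Control libraries, and the log2 fold change was -0.57 (SE 0.0568, 95% interval -0.69 to -0.45, edgeR adjusted p = 3.24e-05). The gene lies on chromosome 6 from 21215503 to 21729805 (mm10), on the plus strand. Kcnd3, a second subunit of the same channel type on chromosome 3 from 105452330 to 105674002, moved the other way. It had 326, 293, 318, 291 and 295 CPM in Chd7iKO 1 to 5, against 246, 272 and 280 CPM (lowest, median and highest) in Control libraries. Again the groups did not overlap, but the rise was small (log2 fold change 0.18 with SE 0.0461, adjusted p = 0.0126 by edgeR). Per kb of exon, the ratio of Kcnd2 to Kcnd3 was 1.03, 1.07, 1.07, 1.06 and 1.03 in Chd7iKO 1 to 5, against 1.59 to 2.05, with a median of 1.78, in Control libraries. The remaining gene of this family, Kcnd1, had 6.31 ± 0.425 CPM in Chd7iKO and 7.60 ± 0.882 CPM in Control libraries and did not pass (edgeR adjusted p = 0.0527). It passed in DESeq2 (adjusted p = 0.0369) and limma voom (0.0171), and in edgeR without Control 5 or 6.

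Kcnc1 belongs to the channels that repolarize the membrane fast and lies on chromosome 7 from 46396497 to 46438704. It rose, with 82.4, 71.7, 71.7, 63.2 and 74.0 CPM in Chd7iKO 1 to 5, against 39.0, 46.2 and 56.1 CPM (lowest, median and highest) in Control libraries. The groups did not overlap (log2 fold change 0.65 with SE 0.0829, adjusted p = 0.000134 by edgeR). Its relative Kcnc2, on chromosome 10 from 112271121 to 112467024, fell, with 2.71, 2.94, 3.05, 3.29 and 2.63 CPM in Chd7iKO 1 to 5, against 4.03, 5.23 and 6.54 CPM in Control libraries (log2 fold change -0.81 with SE 0.131, adjusted p = 0.000709 by edgeR). All Chd7iKO libraries were below all Control libraries. Kcnc4, of the same family, had 4.97 ± 0.555 CPM in Chd7iKO and 5.37 ± 1.53 CPM in Control libraries and did not pass, with a log2 fold change of -0.11 (95% interval -0.47 to 0.25).

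Kcnd2, Kcnd3 and Kcnc1 all stand in the authors' deposited list of genes bound by Chd7 in oligodendrocyte precursors, and they changed in both directions, so the 250 bases before their start sites are shown (RefSeq, GRCm38.p6, plus strand for all, 5′ to 3′). They are chr6:21215096-21215345 for Kcnd2, chr3:105451640-105451889 for Kcnd3 and chr7:46396218-46396467 for Kcnc1. Capitals mark GGGCGG, a GC box read on both strands, or CAGCTG, an E-box that is its own reverse complement.
Kcnd2: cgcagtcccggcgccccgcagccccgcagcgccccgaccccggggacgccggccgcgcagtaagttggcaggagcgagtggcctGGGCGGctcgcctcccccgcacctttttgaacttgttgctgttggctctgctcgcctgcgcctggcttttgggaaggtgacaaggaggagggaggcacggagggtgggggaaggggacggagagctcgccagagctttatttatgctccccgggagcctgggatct
Kcnd3: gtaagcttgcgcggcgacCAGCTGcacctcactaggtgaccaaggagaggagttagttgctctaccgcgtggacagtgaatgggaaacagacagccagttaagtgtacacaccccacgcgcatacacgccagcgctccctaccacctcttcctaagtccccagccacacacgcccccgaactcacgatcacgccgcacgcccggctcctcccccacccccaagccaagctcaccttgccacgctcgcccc
Kcnc1: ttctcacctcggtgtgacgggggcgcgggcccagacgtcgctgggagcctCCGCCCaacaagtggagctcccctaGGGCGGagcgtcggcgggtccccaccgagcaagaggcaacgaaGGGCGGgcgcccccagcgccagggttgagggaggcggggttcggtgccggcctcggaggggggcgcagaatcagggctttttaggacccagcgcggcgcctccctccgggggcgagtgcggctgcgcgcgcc
GGGCGG was found once before Kcnd2, 3 times before Kcnc1 and in neither strand before Kcnd3, where CAGCTG was found once. A promoter was on file for 52 of the 69 genes, in 75 windows, since some genes have several starts. These were set beside all 32851 windows on file, which were not limited to genes of the count table. GGGCGG was present in 41.3% of the Kcn windows and in 32.7% of all windows, and CAGCTG in 24% and 13%. The Sox core AACAAT was present in 6.67% and 9.42% and the TATA box TATAAA in 4% and 12.4%, each read on both strands. The median GC content was 58.8% and 52.4%. The position of the binding sites is not given in the deposited lists, so that these windows are not shown to be bound.

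Kcna4, another A-type subunit, fell, with 3.08, 2.22, 2.40, 1.95 and 2.24 CPM in Chd7iKO 1 to 5, against 2.85, 3.91 and 4.78 CPM in Control libraries (log2 fold change -0.70 with SE 0.156, adjusted p = 0.00504 by edgeR). Chd7iKO 1 reached into the Control range, and the call was lost without Chd7iKO 4 and 5 together (edgeR adjusted p = 0.0608). Kcna2, a subunit best known from the membrane beside nodes of Ranvier, averaged 118 ± 16.0 CPM in Chd7iKO and 145 ± 21.9 CPM in Control libraries (log2 fold change -0.30, edgeR adjusted p = 0.0492). That call was lost without any one of Control 1, 2, 4, 5 or 7 or Chd7iKO 2, 3, 4 or 5 (edgeR adjusted p = 0.0590 to 0.121). Kcnq3, a subunit of channels that dampen firing in neurons, had 9.53 ± 1.64 CPM in Chd7iKO and 9.31 ± 2.89 CPM in Control libraries and did not pass, and neither did Kcnq1 or Kcnq5.

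Other delayed and slow channels, and the modifying subunits, are given next. Kcnb2, a delayed rectifier, fell to 3.21 ± 0.175 CPM in Chd7iKO, against 4.79 ± 1.08 CPM in Control libraries (log2 fold change -0.58 with SE 0.162, adjusted p = 0.0173 by edgeR), and the call was lost without Chd7iKO 4 and 5 together (0.0947). Kcnh2, the gene of the hERG-type channel of heart muscle, averaged 16.3 ± 1.71 CPM in Chd7iKO and 19.4 ± 1.72 CPM in Control libraries (log2 fold change -0.26, edgeR adjusted p = 0.0367), and lost its call without any one of Control 2, 3, 4, 5 or 7 or Chd7iKO 2 to 5 (0.0528 to 0.106). Kcna3, Kcna5 and Kcna6, also known from precursors, did not pass. Kcna6 had 121, 135, 142, 137 and 135 CPM in Chd7iKO 1 to 5, against 119, 140 and 160 CPM in Control libraries (95% interval of the log2 fold change -0.23 to 0.07). Kcna3 had 9.24, 9.68, 8.11, 7.96 and 9.15 CPM in Chd7iKO 1 to 5, against 6.59, 8.34 and 9.53 CPM in Control libraries (-0.14 to 0.30). For both genes the groups overlapped over most of their range. Kcna5 had 1.94, 2.25, 1.66, 2.04 and 1.36 CPM in Chd7iKO 1 to 5, against 1.70, 2.86 and 3.70 CPM in Control libraries (log2 fold change -0.51, 95% interval -0.98 to -0.05, edgeR adjusted p = 0.0919), and passed without Control 6 (0.0413). The groups overlapped at 3 Control libraries. Further pore-forming genes without a call were Kcna1, at 33.1 ± 11.5 CPM in Chd7iKO and 31.9 ± 3.29 CPM in Control libraries, and Kcnh4, Kcnh5, Kcnh7 and Kcnh8, relatives of Kcnh2. Among these, Kcnh4 had 7.11, 4.70, 5.35, 4.60 and 3.75 CPM in Chd7iKO 1 to 5, against 4.72, 7.84 and 10.4 CPM in Control libraries (log2 fold change -0.60, 95% interval -1.08 to -0.13, adjusted p = 0.0555 by edgeR), and passed in DESeq2 (0.0271) and limma voom (0.00849). Kcnh4 also passed in edgeR with the replicate number as a block and without Control 6, Control 7 or Chd7iKO 1. The same held without Controls 3 and 6 together, or Control 1 and Chd7iKO 1 together. Of the modifying subunits, which form no channel alone, Kcnv1 rose to 4.37 ± 0.629 CPM in Chd7iKO, against 2.96 ± 0.70 CPM in Control libraries. All of its Chd7iKO values, 3.85, 4.13, 3.86, 4.70 and 5.32 CPM, lay above the Control range of 1.99 to 3.80 CPM (log2 fold change 0.56 with SE 0.169, adjusted p = 0.0243 by edgeR), but the call was lost without Chd7iKO 4 (0.0549) or 5 (0.0778). Kcnf1 did not pass, at 9.13 ± 0.444 and 9.03 ± 1.14 CPM in Chd7iKO and Control libraries.

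**Figure D3:**
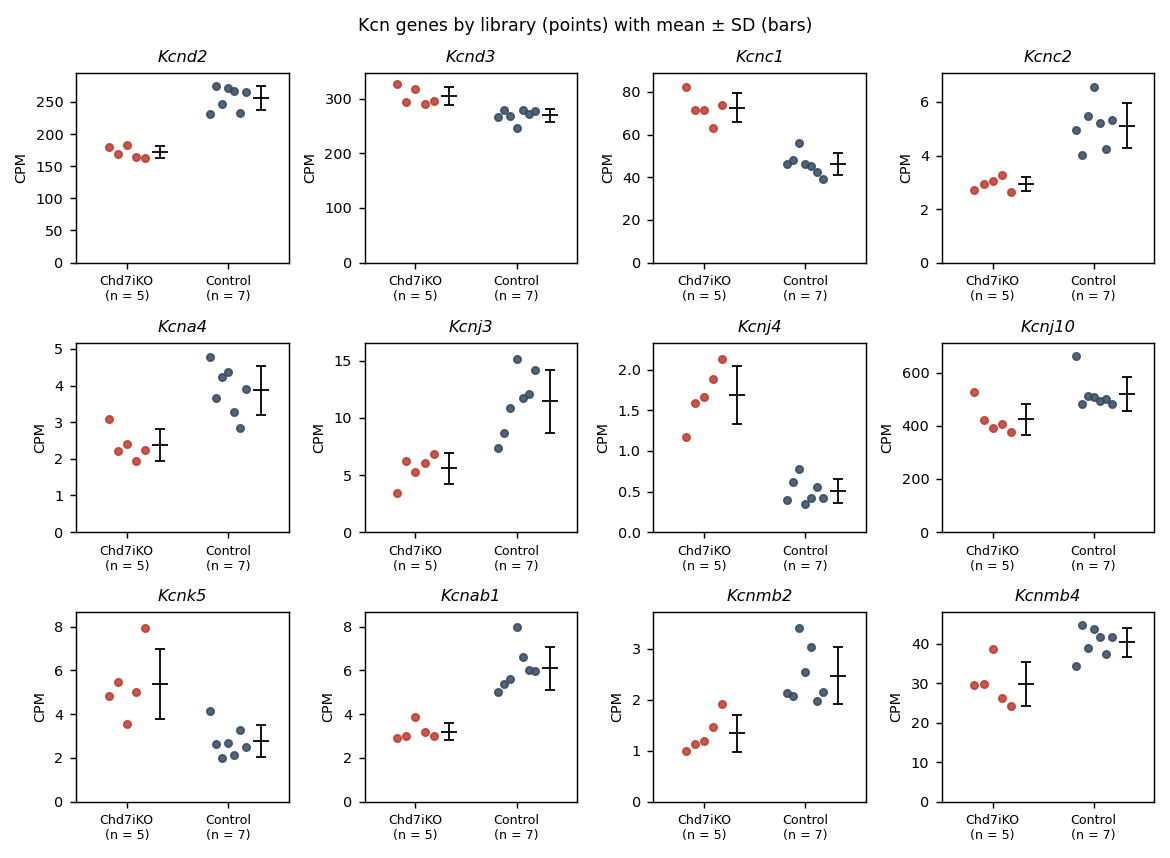
CPM of 12 Kcn genes in each Chd7iKO (red, n = 5) and Control library (dark, n = 7), with the mean ± SD beside the points; every vertical axis starts at 0. Kcnd2, Kcnc2, Kcnj3, Kcnab1 and Kcnmb2 are lower and Kcnd3, Kcnc1 and Kcnj4 higher in all Chd7iKO than in all Control libraries, while Kcna4, Kcnj10, Kcnk5 and Kcnmb4 overlap.

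There were 11 inward rectifier genes, of which 2 rose and 3 fell (median log2 fold change 0.06). The called share was 45.5%, beside 29.5% of all genes. Kcnj3, a pore subunit of channels opened by G proteins, lies on chromosome 2 from 55435970 to 55598145 and had the largest fall of all Kcn genes. It had 3.42, 6.23, 5.29, 6.07 and 6.85 CPM in Chd7iKO 1 to 5, against 7.41, 11.7 and 15.2 CPM (lowest, median and highest) in Control libraries. The groups did not overlap (log2 fold change -1.04 with SE 0.198, adjusted p = 0.002 by edgeR). The related subunit genes Kcnj6 (1.26 ± 0.195 and 1.59 ± 0.377 CPM in Chd7iKO and Control libraries) and Kcnj9 (1.62 ± 0.0802 and 1.55 ± 0.274 CPM) did not pass. Kcnj4 and Kcnj2, which belong to the strongly rectifying channels, both rose. Kcnj4, on chromosome 15 from 79483714 to 79505241, had 1.17, 1.59, 1.66, 1.89 and 2.13 CPM in Chd7iKO 1 to 5, against 0.344, 0.423 and 0.777 CPM in Control libraries, the largest rise among the Kcn genes though at a low level (log2 fold change 1.73 with SE 0.216, adjusted p = 0.000123 by edgeR). Kcnj2 had 12.4, 9.95, 8.41, 13.4 and 13.6 CPM in Chd7iKO 1 to 5, against 4.22, 6.55 and 10.5 CPM in Control libraries. Here Control 1 reached into the Chd7iKO range (log2 fold change 0.80 with SE 0.198, adjusted p = 0.00907 by edgeR), and the call was lost without Chd7iKO 4 and 5 together (0.101).

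Kcnj10, which clears extracellular potassium in astrocytes and oligodendrocytes, lies on chromosome 1 from 172341210 to 172374085 and fell. It had 526, 421, 390, 406 and 375 CPM in Chd7iKO 1 to 5, against 480, 501 and 663 CPM (lowest, median and highest) in Control libraries. Chd7iKO 1 lay inside the Control range, and the difference was small (log2 fold change -0.30 with SE 0.0958, adjusted p = 0.0325 by edgeR). The call was lost without Chd7iKO 2, 3, 4 or 5 (0.0682 to 0.0963) and without Controls 3 and 6 together (0.0534). Control 1, with the highest Kcnj10 level, also had the highest astrocyte marker mean (8.08 log2 CPM), and Chd7iKO 1 the highest among Chd7iKO libraries (7.65). A share of astrocytes was not tested on its own. With 1 score over neuronal, astrocyte, microglial, endothelial and mural markers as a covariate, the Kcnj10 log2 fold change was -0.31 (adjusted p = 0.135 by edgeR). Most microglial, endothelial and mural markers rose in Chd7iKO, so this score and the group cannot be fully told apart. Kcnj16, which pairs with Kcnj10 in glia, had 59.5, 44.6, 35.7, 53.0 and 61.4 CPM in Chd7iKO 1 to 5, against 49.3, 64.4 and 85.6 CPM in Control libraries, and did not pass (log2 fold change -0.36, 95% interval -0.68 to -0.03, edgeR adjusted p = 0.0940). Kcnj16 passed in limma voom (adjusted p = 0.0283). Kcnj11 and Kcnj8 encode pores of ATP-sensitive channels. Kcnj11 averaged 3.94 ± 0.438 CPM in Chd7iKO and 5.40 ± 1.07 CPM in Control libraries (log2 fold change -0.45, edgeR adjusted p = 0.0303). It missed the threshold when Control 1, 2 or 4 or Chd7iKO 2, 4 or 5 was omitted (0.0511 to 0.0865). Kcnj8, known from mural cells, had 1.72, 4.76, 2.95, 6.01 and 4.31 CPM in Chd7iKO 1 to 5, against 0.964, 1.92 and 4.24 CPM in Control libraries (log2 fold change 0.87 with SE 0.333, adjusted p = 0.0629 by edgeR). It passed in edgeR without Control 6 (0.0107), Chd7iKO 1 (0.0204), Controls 3 and 6 together (0.0192) or Control 1 and Chd7iKO 1 together (0.0255), and also in DESeq2 (0.0367) and limma voom (0.0026). Mural and fibroblast markers summed to 429 to 1010 CPM in Chd7iKO and 183 to 514 CPM in Control libraries. With the score of other cell types as covariate the Kcnj8 log2 fold change was 0.09 (adjusted p = 0.888 by edgeR). That score is not of mural cells alone and cannot be fully told apart from the group. A share of mural cells was not tested on its own. Kcnj12 (7.09 ± 1.47 and 6.64 ± 1.17 CPM in Chd7iKO and Control libraries) and Kcnj13 (3.90 ± 2.28 and 2.83 ± 1.22 CPM) did not pass.

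The tandem-pore class held 8 genes, of which 1 rose and 1 fell (25%, beside 29.5% of all genes called). Kcnk5, an acid-sensitive leak channel on chromosome 14 from 20140057 to 20181809, had 4.84, 5.48, 3.54, 5.03 and 7.94 CPM in Chd7iKO 1 to 5, against 1.99, 2.64 and 4.15 CPM (lowest, median and highest) in Control libraries. Chd7iKO 3 lay below Control 1 and the other Chd7iKO libraries above all Controls (log2 fold change 0.96 with SE 0.210, adjusted p = 0.00466 by edgeR). Without Chd7iKO 4 and 5 the call was lost (0.0506). Kcnk2, a stretch- and lipid-sensitive leak channel, had 78.3, 72.4, 71.4, 73.8 and 74.9 CPM in Chd7iKO 1 to 5, against 76.3, 81.8 and 89.2 CPM in Control libraries. Chd7iKO 1 lay inside the Control range and the other 4 below it. This fall was the smallest called (log2 fold change -0.16 with SE 0.0465, adjusted p = 0.0232 by edgeR), and the call was lost without Chd7iKO 2, 3, 4 or 5 (0.0512 to 0.0610) or with library totals as the scaling (0.0508). Outside this class, Kcna2 (edgeR adjusted p = 0.0628), Kcnh2 (0.0557) and Kcnma1 (0.0516) also lost their calls with that scaling. Kcnk10, a relative of Kcnk2, had 43.0 ± 7.86 CPM in Chd7iKO and 46.9 ± 9.68 CPM in Control libraries and did not pass. Kcnk1, a weakly rectifying leak channel, had 36.6, 35.1, 36, 35.2 and 34.3 CPM in Chd7iKO 1 to 5, against 35.7, 36.8 and 42.4 CPM in Control libraries, with a 95% interval of the log2 fold change from -0.24 to 0.01. Kcnk3, Kcnk6, Kcnk12 and Kcnk13 were at 0.965 to 5.44 CPM on average in Chd7iKO and 1.26 to 5.87 CPM in Control libraries and did not pass.

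Among the 7 genes of calcium- or sodium-activated channels, 0 rose and 1 fell (14.3%, beside 29.5% of all genes called). This was Kcnma1, the pore of the large-conductance channel opened by calcium and voltage, with 35.8, 24.9, 24.0, 23.8 and 24.8 CPM in Chd7iKO 1 to 5, against 27.2, 32.4 and 42.0 CPM (lowest, median and highest) in Control libraries (log2 fold change -0.37 with SE 0.128, adjusted p = 0.0415 by edgeR). Chd7iKO 1 stood inside the Control range and the other 4 below it. The call was lost without any one of Control 1 to 5 or Chd7iKO 2 to 5 (0.0526 to 0.105). Both measured beta subunits of this channel fell as well. Kcnmb2, which inactivates the channel, had 0.986, 1.14, 1.2, 1.46 and 1.92 CPM in Chd7iKO 1 to 5, against 1.98, 2.15 and 3.42 CPM in Control libraries, with no overlap (log2 fold change -0.88 with SE 0.201, adjusted p = 0.00576 by edgeR), though the call was lost with the score of other cell types as covariate (log2 fold change -0.83, adjusted p = 0.0765). Kcnmb4, the beta subunit typical of brain, had 29.5, 29.7, 38.7, 26.3 and 24.1 CPM in Chd7iKO 1 to 5, against 34.4, 41.7 and 44.6 CPM in Control libraries (log2 fold change -0.44 with SE 0.106, adjusted p = 0.00726 by edgeR). Chd7iKO 3 lay inside the Control range, and without Chd7iKO 4 and 5 the call was lost (0.0818). The small-conductance channel genes Kcnn1, Kcnn2 and Kcnn3, the sodium-activated Kcnt1 and Kcnt2 and the related Kcnu1 did not pass. Kcnt1 varied widely between libraries, with 68.2, 39.2, 22.6, 27.1 and 29.1 CPM in Chd7iKO 1 to 5 and 20.3, 35.6 and 99.5 CPM in Control libraries. Its highest value was in Control 1 and its highest Chd7iKO value in Chd7iKO 1, as for Kcnn2 (37.0 and 23.2 CPM) and Kcnj10.

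The class of auxiliary and regulatory subunits held 13 genes. The median log2 fold change was -0.25, with 0 rises and 4 falls (30.8%, near the 29.5% of all genes called). Beside Kcnmb2 and Kcnmb4, these were Kcnab1 and Kcnip1. Kcnab1, a beta subunit that gives Kcna channels fast inactivation, lies on chromosome 3 from 65109384 to 65378223. It had 2.90, 3.00, 3.86, 3.17 and 3.01 CPM in Chd7iKO 1 to 5, against 5.02, 5.99 and 7.98 CPM (lowest, median and highest) in Control libraries, with no overlap (log2 fold change -0.93 with SE 0.130, adjusted p = 0.000243 by edgeR). The other beta subunits of this family, Kcnab2 (23.9 ± 1.31 and 23.2 ± 1.33 CPM in Chd7iKO and Control libraries) and Kcnab3 (13.7 ± 0.838 and 12.2 ± 0.502 CPM), did not pass. Kcnab3 passed in DESeq2 (adjusted p = 0.0466) and limma voom (0.0373), and in edgeR with library totals as the scaling or without Chd7iKO 4. Kcnip1, a calcium-binding subunit of Kcnd channels, averaged 57.1 ± 6.88 CPM in Chd7iKO and 79.3 ± 19.8 CPM in Control libraries (log2 fold change -0.48, edgeR adjusted p = 0.0369). Controls 2, 6 and 7 lay within the Chd7iKO range of 50.8 to 67.8 CPM, and the call was lost without Control 1, 3, 4 or 5 or Chd7iKO 2, 3, 4 or 5 (0.0539 to 0.0935). Kcnip3, the member with the highest level per length, had 422, 355, 445, 455 and 449 CPM in Chd7iKO 1 to 5, against 350, 373 and 443 CPM in Control libraries, and did not pass (log2 fold change 0.13, 95% interval -0.04 to 0.30). Kcnip2, Kcnip4, Kcne1l, Kcne2, Kcne4 and Kcnrg did not pass either.

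Of the 3 non-coding members 1 passed (33.3%, beside 29.5% of all genes), Kcnd3os. It is antisense to Kcnd3, on chromosome 3 from 105441595 to 105452955 on the minus strand, and its body spans the Kcnd3 window printed above. It had 2.77, 2.46, 1.91, 1.77 and 2.48 CPM in Chd7iKO 1 to 5, against 1.2, 1.40 and 1.81 CPM (lowest, median and highest) in Control libraries. Chd7iKO 4 lay below the highest Control and the other 4 above all Controls (log2 fold change 0.66 with SE 0.156, adjusted p = 0.00718 by edgeR). With the other-cell score in the model the call was lost (log2 fold change 0.60, adjusted p = 0.0759). Kcnmb4os2, antisense to Kcnmb4, had 11.0 ± 2.18 CPM in Chd7iKO and 13.8 ± 1.6 CPM in Control libraries (edgeR adjusted p = 0.0559). It passed in DESeq2 and limma voom, and in edgeR without Control 6, Chd7iKO 3 or Controls 3 and 6 together. Kcnq1ot1, antisense to Kcnq1, had 28.7 ± 3.62 CPM in Chd7iKO and 25.5 ± 4.38 CPM in Control libraries and did not pass. The library kit keeps strand, but whether the counting used strand is not stated in these sources, and reads of these pairs may be shared.

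**Figure D4:**
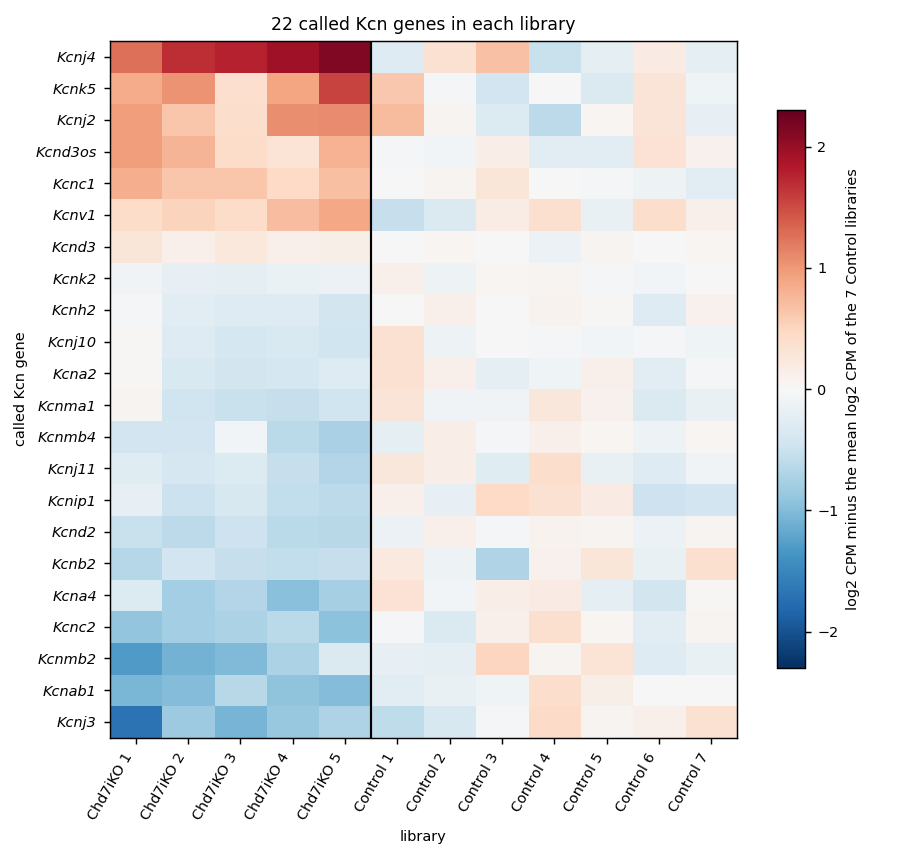
22 of the called Kcn genes (rows, by log2 fold change) in the 5 Chd7iKO and 7 Control libraries (columns). Colour gives log2 CPM minus the mean log2 CPM of the Control libraries; Chd7iKO 1 stays near Control levels for Kcnj10, Kcna2 and Kcnma1, and Control 1 is high for Kcnk5 and Kcnj2.

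Genes outside the Kcn stem that serve the same channels or carry potassium were taken from 2 lists of 53 genes in all, of which 44 were measured. In Chd7iKO cells 5 of these rose and 12 fell (median log2 fold change -0.10), beside 15.8% and 13.8% of all genes. Both measured extracellular partners of the A-type channel fell without overlap. Dpp6 had 261, 230, 235, 227 and 212 CPM in Chd7iKO 1 to 5, against 270, 310 and 352 CPM (lowest, median and highest) in Control libraries (log2 fold change -0.39 with SE 0.0719, adjusted p = 0.00153 by edgeR). Dpp10 had 83.2, 80.2, 90.4, 77.0 and 76.6 CPM in Chd7iKO 1 to 5, against 101, 126 and 133 CPM in Control libraries (log2 fold change -0.57 with SE 0.0741, adjusted p = 0.00015 by edgeR). The scaffold gene Dlg2 also fell (log2 fold change -0.60), as did Lgi1 and its receptor Adam22 (-0.44 and -0.32), while the scaffold gene Dlg4 rose (0.18). Abcc9, the regulatory subunit that pairs with Kcnj8, had 9.18, 21.8, 14.4, 27.0 and 22.4 CPM in Chd7iKO 1 to 5, against 5.50, 8.93 and 14.7 CPM in Control libraries (log2 fold change 0.90 with SE 0.264, adjusted p = 0.0212 by edgeR), with the same 3 Chd7iKO libraries highest as for Kcnj8. In the transport list 3 genes rose and 7 fell. The potassium-dependent sodium-calcium exchanger Slc24a3 (log2 fold change -0.55), the sodium pump regulators Fxyd6 (-0.41) and Fxyd7 (-0.54) and the hyperpolarization-activated channel Hcn2 (-0.37) fell, while the potassium-chloride cotransporter Slc12a7 (0.58) and the pump regulator Fxyd5 (0.90) rose. With Chd7iKO 5 left out, 3 genes of these lists rose, beside 9.9% of all genes. With Chd7iKO 4 and 5 left out together 0 rose and 8 fell, beside 6.44% and 5.95%. With the other-cell score in the model 0 rose and 6 fell, beside 5.03% and 4.54%.

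Counts for other channel families are given beside these, where 15.8% of all genes rose and 13.8% fell. Of 8 sodium channel genes (Scn) 1 rose and 2 fell (median log2 fold change -0.23); of 20 calcium channel genes (Cacn) 0 rose and 5 fell (-0.13); and of 7 chloride channel genes (Clcn) 0 rose and 1 fell (-0.09). The difference between these families and the Kcn genes was not tested.

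The deposited lists of bound genes were set beside the calls. Of the 69 Kcn genes 28 (40.6%) stand in the authors' deposited list of genes bound by Chd7 in oligodendrocyte precursors, beside 39.4% of all measured genes. Among these 28, 2 rose (Kcnc1 and Kcnd3) and 6 fell (Kcnd2, Kcnj10, Kcna2, Kcnab1, Kcnb2 and Kcnip1), or 28.6%, and among the other 41, 5 rose and 10 fell, or 36.6%. Over all genes the called shares were 29.2% of bound and 29.7% of other genes. In the list of genes bound by both Chd7 and Chd8 stood 21 Kcn genes (30.4%, beside 34.8% of measured genes), and a further 21 stood in that of genes bound by Chd8 without Chd7 (30.4%, beside 32%). Of the Kcn genes bound by Chd8 without Chd7, 2 rose and 5 fell, Kcnj3, Kcnj4 and Kcnc2 among them. That is 33.3%, beside 28% of all measured genes in that list. By the authors' deposited table, 8 Kcn genes were higher and 16 lower at an adjusted p under 0.05, beside 15.3% and 11% of all genes, and 21 of these 24 were called here. Kcnj8, Kcnj16 and Kcnh4 were called in the authors' deposited table only, and Kcnk2 and Kcnh2 here only.

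The number of Kcn calls changed with the libraries that entered the fit. Without Chd7iKO 4 and 5 together, the libraries with the highest endothelial and mural marker levels, 4 Kcn genes were higher and 6 lower, beside 6.44% and 5.95% of all genes, and all 10 were among the 23. With a score of neuronal, astrocyte, microglial, endothelial and mural markers as a covariate, 2 were higher (Kcnj4 and Kcnc1) and 6 lower, beside 5.03% and 4.54%. Since many of these markers rose in Chd7iKO, the score overlaps in part with the group. Leaving out any one library gave 6 to 10 higher and 9 to 20 lower Kcn genes. The count of higher genes was 6 without Chd7iKO 5 (beside 9.9% of all genes) and 10 without Control 6 (17.6%). The count of lower genes was 9 without Chd7iKO 2, 4 or 5 (beside 10.2%, 10.5% and 9.17% of all genes) and 20 without Control 6 (15.1%). limma voom called 13 higher (beside 24%), and a threshold of 0.01 in edgeR left 8 lower (beside 6.81%). In limma voom, which called 45.8% of all genes, Kcnh8, Kcnip4, Kcnk6, Kcnk13, Kcnrg and Kcnq1 were also called. No filter and a stricter filter, among the 24 alternatives, repeat the main fit. Kcnd2, Kcnc1, Kcnj4, Kcnab1, Kcnc2 and Kcnj3 were called with their direction in all 24 alternatives. With the covariate, their log2 fold changes were -0.46 (Kcnd2), 0.79 (Kcnc1), 1.62 (Kcnj4), -0.80 (Kcnab1), -0.70 (Kcnc2) and -1.11 (Kcnj3). Of the 23 called genes, 15 lost their call with it. Among these, Kcna4 (log2 fold change -0.56, adjusted p = 0.0754 by edgeR), Kcnmb2 (-0.83, 0.0765), Kcnd3os (0.60, 0.0759), Kcnd3 (0.20, 0.0515), Kcnv1 (0.47, 0.215), Kcnj10 (-0.31, 0.135), Kcna2 (-0.31, 0.191), Kcnk2 (-0.16, 0.118), Kcnma1 (-0.26, 0.343) and Kcnj11 (-0.33, 0.268) had log2 fold changes within 1.5 times those without it. For Kcnk5 (0.51, 0.121), Kcnj2 (0.41, 0.186), Kcnip1 (-0.16, 0.584), Kcnmb4 (-0.24, 0.152) and Kcnh2 (-0.13, 0.44) they were smaller by more than that.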

How the data were processed

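RNA of O4-positive cells was sequenced from 5 Chd7iKO and 7 Control libraries made with a stranded mRNA kit, per the labels' protocols. The deposited table holds unscaled estimated counts for each gene, made by the authors, in which 1.76% of values were not whole (tolerance 1e-06); mm10, Bowtie, TopHat2, edgeR and featureCounts appear in the submitters' processing notes without role, version or annotation release. Their own log2 fold changes and p-values, also deposited, were used only where named. Deposited too were lists of bound genes that hold no other numeric values.

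Counts were rounded and tested with edgeR 4.0.16 (quasi-likelihood F-test, TMM scaling, expression filter, which removed 0 genes, no covariate, two-sided) in R 4.3.3, the p-values being adjusted by Benjamini-Hochberg over 14107 genes, with a threshold of 0.05; the biological coefficient of variation was 14.7%. Standard errors and 95% intervals come from this fit. Groups come from the sample titles. The number of pups behind each library is not stated, and p-values measure the spread between these libraries, which may in part be technical. No pair of libraries agreed within sampling noise (lowest chi-square per degree of freedom 9.14 over 31 pairs). CPM use TMM scaling, marker levels are averaged on the log2 CPM scale (prior count 2), and exon lengths, gene coordinates and overlaps come from GENCODE vM21 (mm10). Alternatives used DESeq2 1.42.0 and limma 3.58.1, and the code was tested on simulated data.

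The members, gene lists and alternatives were chosen with earlier results of these data known. By rule, all called Kcn genes are named, with values per library for the 8 rises and 8 falls with the smallest adjusted p and for 11 genes known from glia. A few Kcn genes are counted in all totals but not reported here by name or drawn in figures; of the partner and transport lists, up to 6 called genes each are named by adjusted p. Abcc9, Kcnip3, Kcnt1 and the values of other genes without a call were chosen after they were seen. Sheets of autism risk genes and gene ontology terms were not used here.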

Additional observations from a re-analysis of the deposited data

Results flagged for a closer look

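In 60 groups of values, 5 or 7 libraries of 1 gene each, a library was looked for that stood apart from the others of its group (Dixon's test at the 95% level, which chance passes in about 1 of 20 groups). Among Chd7iKO libraries, Chd7iKO 1 stood apart for Kcnma1, at 35.8 CPM with the others at 23.8 to 24.9, and for Kcna2, at 146 CPM with the others at 107 to 117. Chd7iKO 3 stood apart for Kcnab1, at 3.86 CPM with the others at 2.90 to 3.17. Among Control libraries, Control 1 stood apart for Kcnj10, at 663 CPM with the others at 480 to 513. Control 4 was low for Kcnd3, at 246 CPM with the others at 267 to 280. Control 6 was low for Kcnh2, at 15.8 CPM with the others at 19.1 to 20.9, and high for Kcnj8, at 4.24 CPM with the others at 0.964 to 2.33.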

How the results depend on the processing

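Of the main counts, Kcn genes higher in Chd7iKO numbered 7, and 13 with limma voom, 2 with the covariate of other cell types and 4 without Chd7iKO 4 and 5. Kcn genes lower in Chd7iKO numbered 16, and 8 at a threshold of 0.01, 6 with the covariate and 6 without Chd7iKO 4 and 5. Leaving out each library in turn gave 6 to 10 higher and 9 to 20 lower. Partner and transport genes that were higher numbered 5, and 9 with limma voom, 1 at a threshold of 0.01, 8 with the replicate number as a block, 0 with the covariate (edgeR) and 0 without Chd7iKO 4 and 5; those that were lower numbered 12, and 6 with the covariate. With each library left out they numbered 3 to 7 and 10 to 14. Over all genes, the higher shares were 24% with limma voom, 7.77% at a threshold of 0.01 and 17.8% with the block. They were 5.03% with the covariate and 6.44% without Chd7iKO 4 and 5, and the lower share with the covariate was 4.54%. No filter and a stricter filter kept the same 14107 genes, so these fits repeat the main fit and could not move a count. DESeq2 size factors, DESeq2's Wald test, library totals and leaving out Controls 3 and 6 moved none of these counts by over 1.5 times. The causes of these shifts were not tested. Whether replicate numbers pair the libraries is not stated in these sources. The correlations of same-numbered deviations were 0.376, -0.12, 0.0839, -0.127 and -0.177, and Chd7iKO 1 alone correlated best with its own number. Over the Kcn genes alone they were 0.639, -0.419, -0.0661, -0.245 and -0.425. Correlations over so few pairs cannot settle whether libraries were paired. With the replicate block 27 Kcn genes were called (beside 33.9% of all genes), 22 of them among the 23. Of the genes called without it, Kcnb2 missed the threshold with the block (adjusted p = 0.0564 by edgeR). Not called without the block, Kcnj8 (adjusted p = 0.0319 by edgeR), Kcna5 (0.043), Kcnh4, Kcnk6 and Kcnk12 passed with it. Leaving out Control 1 and Chd7iKO 1 together, chosen after the data were seen, gave 25 (beside 33.9% of all genes), with all 23 among them. Over the single genes named by rule, 615 values kept their side of the threshold, 95 lost it, 10 gained it and 0 changed sign. The 615 include the values with no filter and with a stricter filter, which repeat the main fit. At 9 counts or more in each library, precision for the weakest members is limited by few reads.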
